A study of Drosophila melanogaster with 13 samples.

Results

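The comparison described here sets nonassimilated flies of Mix experiment 1 against the P0 flies they descend from, at 1203242 sites listed for both pools, among 9471212 site rows in the 9 deposited allele tables of the study. All listed sites were members, with no filter on the values. Mix is an outbred population made by admixing 4 inbred lines of the Drosophila Genetic Reference Panel (D208, D437, D820 and D907). The nonassimilated line was founded from control flies of generation 8 and was selected for ectopic veins (EV), extra pieces of wing vein, without any heat shock. The assimilated line came from heat-shocked flies selected for EV. P0 is the ancestral Mix population before selection, and the control line was kept at normal temperature without selection. All pools were whole adult females of this wild type background. Each population was sequenced as 1 pool of 100 females, or 200 chromosomes, so a test compares 2 pools and the spread among replicate lines is unknown.

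In a pool of this kind the frequency of an allele is the share of reads that carry it. When a few founders or 1 favoured haplotype give rise to a population, alleles on the same chromosome travel together until recombination separates them, and a long stretch can lose all variation at once. Such a stretch carries passengers beside any allele under selection, and random drift in a small selected line can produce it too. Wing veins are placed by EGFR, Notch, BMP and Hedgehog signalling acting on prepattern genes such as the spalt and Iroquois transcription factors, so these pathways were looked up in the fixed stretches.

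The sites with the smallest p-value in 5 of the genes described below, and 2 swept sites of X, are shown first so that the positions that changed can be seen, in 29 bases of the RefSeq Release 6 (dm6) plus strand, with the listed position in capitals. Their positions in order were chr3R:25203083-25203111, chr3R:17027604-17027632, chrX:5348576-5348604, chr2L:11370713-11370741, chr3L:12618433-12618461, chrX:17315041-17315069 and chrX:20400964-20400992. The tables give no alternative bases, so the reference sequence alone is printed.
Cad96Ca: ctcaaagccaacatGcagctgcattcagc
Pxd: attaatttatttatGtctaatttcgtaga
SK: atatatatatatgcGatactggaaatgcc
salr: ggccggagcatgcaGtgcggcattgtccc
caup: aagaatccatatccGacgaagggtgagaa
B-H2: cgctttatgatcacCgatattttggcagg
HERC2: gtttcggaacccccAgtggctgcttggct

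At the Cad96Ca site, which is intronic, 86 of 86 reads of nonassimilated flies carried the alternative allele (100%, exact 95% interval 95.8 to 100), against 15 alternative and 100 reference reads in P0 (13.0%, 7.49 to 20.6). At the Pxd site all 150 reads of nonassimilated flies were alternative, against 33.6% in P0 (25.3 to 42.7). At the intronic SK site on X 115 of 115 reads were alternative in nonassimilated flies, against 12.7% in P0 (5.96 to 22.7) and 0% in control flies. These 3 sites had no read of the other allele in the nonassimilated pool. In control flies the alternative allele was at 25.5% at the Cad96Ca site and 27.7% at the Pxd site. The next 2 sites lie in genes of vein placement. At the salr site 94 of 94 reads of nonassimilated flies were alternative, against 15.3% in P0 and 37.5% in control flies. At the coding caup site 120 of 120 reads were, against 26.9% in P0 and 29.6% in control flies. The coding sites in B-H2 and HERC2 had no alternative read in P0 and were not listed with control flies. There the alternative allele reached 97.0% (92.6 to 99.2) and 93.9% (88.4 to 97.3) in nonassimilated flies, against upper limits of 3.08% and 3.36% in P0. The intervals cover the counting of reads and leave out the sampling of chromosomes into the pool, and the sites were picked for their small p-values.

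The median depth was 86.0 reads in nonassimilated flies and 84.0 reads in P0 over all listed sites. The 5 large arms (X, 2L, 2R, 3L and 3R) held 98.1% of the sites. The reads of both pools were compared at each site by Fisher's exact test, two-sided and Bonferroni-adjusted over the table, and 257473 sites (21.4%) had an adjusted p-value below 1e-05 and are called changed. The P0 minor allele is the one present in less than 50% of reads. It rose at 181418 changed sites, and the major allele rose at 72704. A minor allele has more room to rise than a major one. The median absolute change at changed sites was 0.553, so this excess follows in part from what the test can call. At changed sites the 90th percentile of the absolute change in frequency was 0.746. Of the changed sites, 186436 (72.4%) were fixed in nonassimilated flies, where fixed means that 1 allele had 98% of the reads or more.

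Among 941243 sites of the 5 arms with a P0 minor allele frequency of at least 0.1, here called segregating, 453294 (48.2%) were fixed in nonassimilated flies. The test called 40.6% of those fixed sites. At fixed sites the allele that took over had a mean P0 frequency of 63.5%, and at 24.9% of them it was the P0 minor allele. Among segregating sites listed with the control pool, 8.21% were fixed in control flies.

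The chromosome arms differed in how much variation was left. Arm 2R had the largest share of segregating sites fixed (64.8%), followed by X (51.9%), 3R (50.5%), 3L (41.8%) and 2L (36.6%). In control flies the same share lay between 6.29% on 2R and 10% on 3R. The mean expected heterozygosity, 2pq with p and q as the allele frequencies, was 0.157 in nonassimilated flies and 0.326 in P0 over the listed arm sites, a ratio of 0.482. It was lowest on 2R (0.127 in nonassimilated flies, 0.310 in P0) and X (0.128 in nonassimilated flies, 0.314 in P0). On 2L it stayed at 0.219 in nonassimilated flies, against 0.316 in P0, and 60.1% of the segregating sites there still had both alleles at 10% or more.

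**Figure D1:**
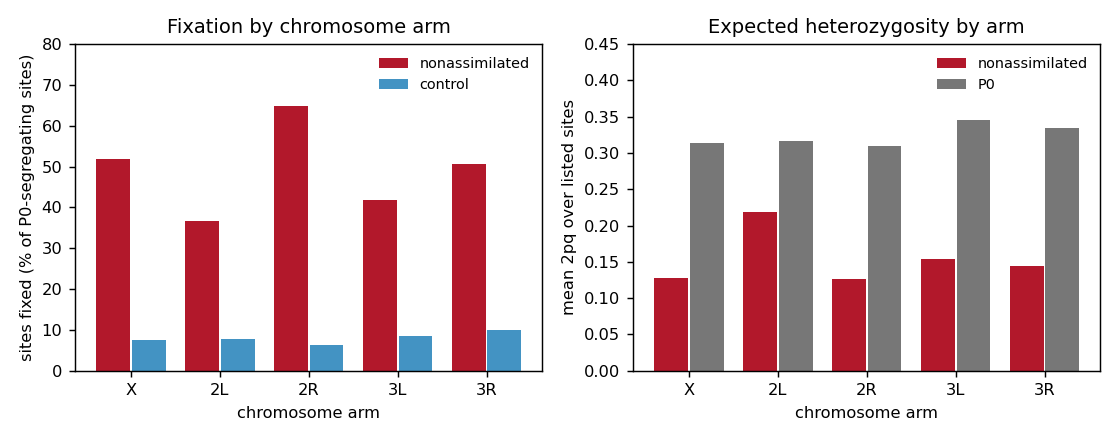
The left panel plots the share of P0-segregating sites that were fixed, in percent, for nonassimilated (left bars) and control flies (right bars) by chromosome arm; the right panel plots mean 2pq for nonassimilated flies (left bars) and P0 (right bars). Fixation in nonassimilated flies runs between 36.6% on 2L and 64.8% on 2R, above the 6.29% to 10% of control flies on every arm, and each bar is 1 pool without an error.

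Above a P0 frequency of 0.1, rarer alleles were lost more often, where lost means 2% of the reads or less. Minor alleles with a P0 frequency above 0.1 and up to 0.2 were lost at 54.8% of 196391 sites and fixed at 2.81%. In the range above 0.4 they were lost at 28.5% and fixed at 23.1% of 210015 sites. Minor alleles nevertheless had a higher mean frequency in nonassimilated flies than in P0 in each of the 6 ranges, for example 35.4% in nonassimilated flies against 25.4% in P0 for alleles above 0.2 and up to 0.3. The mean of the same alleles in control flies was 27.3%. A minor allele is defined here by its P0 reads, and the part of counting error in P0 in these differences was not tested.

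**Figure D2:**
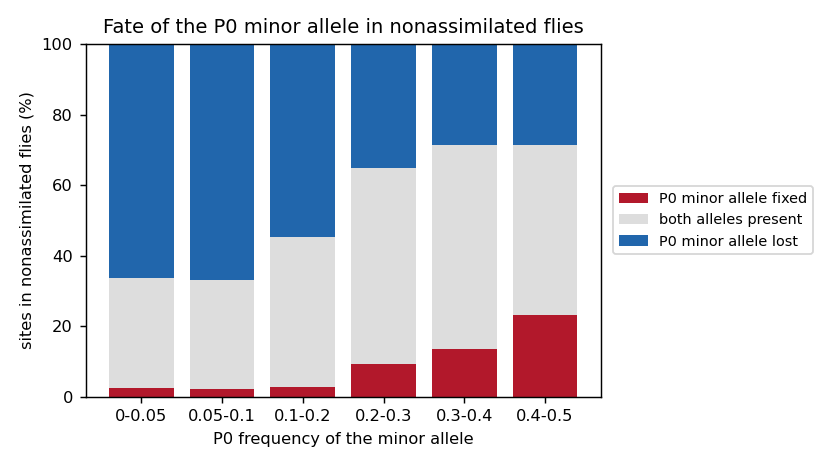
Stacked bars give the percentage of sites in nonassimilated flies at which the P0 minor allele was fixed (bottom), still present with the other allele (middle) or lost (top), by its P0 frequency. The lost part is 66.2% and 66.8% in the 2 lowest ranges and 28.5% in the highest, where the fixed part reaches 23.1%.

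Part of the fixation lay in long stretches. Of 1319 windows of 100 kb with at least 50 segregating sites, 257 (19.5%) had at least 90% of these sites fixed in nonassimilated flies, and 0 of 1319 had so in control flies, in which the highest window reached 38.7%. Arm 2R held 108 of these windows, 3R 69, X 38, 3L 24 and 2L 18. Joined over 1 intervening window, 251 of the 257 lay in 6 runs of at least 3 windows. The runs covered 25.2 Mb, had a median length of 3.30 Mb and held 3288 protein-coding genes. They held 42.4% of the fixed segregating sites and 21.2% of the arm sites. Outside the runs 35.1% of the segregating sites were fixed too. In the runs 39.2% of the sites had changed, against 17.1% outside.

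The longest run took up the distal part of 2R, from 14.4 to 25.2 Mb, a length of 10.8 Mb. All 108 of its windows were fixed, and 86428 of its 87616 segregating sites (98.6%) were fixed by the bound of 98% of reads. The window before it had 58.3% of sites fixed and its first window 97.9%, and the window after it 80.7%. Its lowest window had 93.6%. Mean 2pq in the run was 0.00280 in nonassimilated flies, against 0.311 in P0. The allele that became fixed was the P0 minor allele at 29.3% of the fixed sites. In control flies no window of the run had more than 34.1% of its sites fixed.

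This run holds 1591 of the 13865 protein-coding genes of the 5 arms, with several genes of vein patterning among them. Whether such genes are more common in it than elsewhere was not tested. Egfr encodes the receptor of the pathway that specifies vein cells, and 449 of its 453 segregating sites were fixed. blistered (bs), the fly serum response factor that is needed for intervein fate, had 157 of 160 fixed, and plexus (px), a repressor of vein formation, had 522 of 531. In cv-2, which encodes a BMP-binding protein of crossvein formation, 300 of 303 segregating sites were fixed. knot (kn), a target of Hedgehog in the central wing, had 305 of 312. The Hippo pathway genes hpo and yki, a kinase and the coactivator it restrains, had 17 of 17 and 9 of 9 sites fixed, and heat shock factor (Hsf) had 25 of 25. The share fixed in each of them was within the range of the windows of the run.

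Arm 3R had a pair of runs. The proximal one reached from 15.4 to 18.9 Mb (3.5 Mb, 98.6% of 27054 segregating sites fixed) and holds Pxd, CG8907 and CG31262, candidate genes of the study, with Dad, an inhibitory Smad of BMP signalling. The distal one reached from 24.8 to 27.9 Mb (3.1 Mb, 98.7% of 24747 sites) and holds the candidates Cad96Ca, a receptor tyrosine kinase gene, and tx, with Serrate (Ser), a Notch ligand, and E(spl)mbeta-HLH, a Notch target. The share of listed sites that changed was 43.7% in the proximal and 44.2% in the distal run. Fixed alleles had a mean P0 frequency of 56.1% and 55.4% in the 2 runs, and were P0 minor alleles at 36.9% and 38.8% of fixed sites. Between the runs the windows next to them dropped to 60.2% and 61.7%.

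On X a run from 4.4 to 8.2 Mb (3.8 Mb) had 94.6% of 21264 segregating sites fixed, and 37 of its 38 windows passed. It holds SK, a potassium channel gene that the study found downregulated in assimilated flies, with bifid (bi, also called optomotor-blind), brinker (brk) and crossveinless (cv). bi and brk encode a target and a repressor of BMP signalling, and cv a crossvein factor. On 3L a run from 11.6 to 13.9 Mb (2.3 Mb, 95.8% of 21555 sites) holds the Iroquois genes ara and caup, which promote vein formation, and mirr. Here 156 of 171 sites of ara, 147 of 152 of caup and 121 of 146 of mirr were fixed. On 2L the shortest run, from 10.2 to 11.9 Mb (1.7 Mb, 98.8% of 13938 sites), holds the spalt genes salm and salr and abrupt (ab), which is needed for vein L5. Of their segregating sites, 97 of 98, 129 of 129 and 316 of 325 were fixed. On 2L the P0 minor allele won at 55.7% of the fixed sites, the highest share of the 6 runs.

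**Figure D3:**
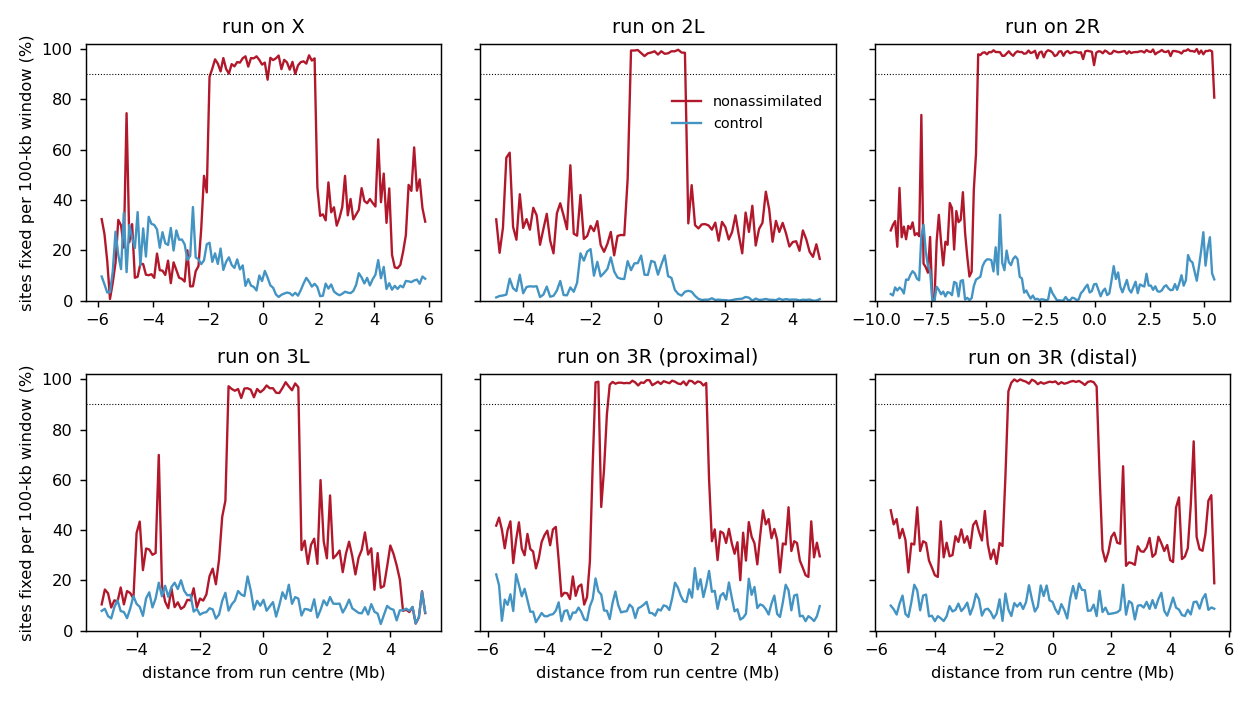
Each panel plots the percentage of P0-segregating sites fixed per window of 100 kb against the distance in Mb from the centre of 1 run, for nonassimilated (upper line within the run) and control flies (lower line there); the dotted line marks 90%. Nonassimilated flies form a plateau above the dotted line in each run, with 1 dip on X, and control flies do not exceed 38.7% anywhere.

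The nonassimilated line was set against control flies directly, since its founders were control flies of an earlier generation. The same test over 1157001 sites listed with both called 291252 sites (25.2%). Of 247487 sites that had changed against P0 and were listed with control flies, 188759 (76.3%) were also called against control. All of these had the same direction, but both tests use the same nonassimilated reads, in which most changed sites were fixed. The shared direction is therefore largely set in advance. By arm 32.9% of sites differed between nonassimilated and control flies on X, 29.9% on 3L, 28.2% on 2R, 23.4% on 3R and 16.6% on 2L. On 3L the share was above the 16.9% found against P0, and control flies had themselves moved most there, with a mean absolute change of 0.178 at segregating sites, against 0.104 on 3R. In the runs, between 37.1% (2R) and 50.4% (3L) of the sites differed from control flies. The comparisons of control and assimilated flies use the same P0 reads and are given below only as values beside those of nonassimilated flies.

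At the sites fixed in nonassimilated flies, the same alleles had other frequencies in the other pools. In the proximal run of 3R they averaged 99.9% in nonassimilated flies of experiment 2, a later experiment on Mix, against 47.7% in the P0 of that experiment. In the distal run of 3R they averaged 100.0% in these flies, against 39.8% in their P0. At 99.6% and 99.5% of the sites listed in experiment 2 in the 2 runs, its nonassimilated flies were fixed for the same allele. In the other 4 runs their share fixed for the same allele lay between 22.8% on 3L and 51.3% on 2R. On X 38.9% and on 2L 49.0% of these sites were fixed for the other allele in experiment 2. In assimilated flies of experiment 1 the alleles averaged 72.4% in the proximal and 87.2% in the distal run of 3R, and in control flies 56.7% and 56.5%. On 2R 62.2% of the listed sites were fixed for the same allele in assimilated flies and 15.4% for the other allele.

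D907, 1 of the founding lines, was sequenced on its own, so its alleles can be followed. At 482587 arm sites the alternative allele was at 98% or more in the D907 P0 pool. Other founders may carry the same allele. Of these, 53523 were at 10% to 40% in Mix P0. In nonassimilated flies 27.5% of them were fixed for the D907 allele and 8.75% had lost it. On X, 2L and 2R most such alleles with a low P0 frequency lay above 40%, so a range of 20% to 50%, chosen after seeing the data, was used as well and held 106830 sites, of which 26.3% were fixed for the D907 allele and 17.7% had lost it. With this range the D907 alleles averaged 79.1% on 3R in nonassimilated flies, against 31.6% in control flies and 35.8% in P0. On 3L they averaged 69.1% in nonassimilated flies, against 20.6% in control flies and 35.9% in P0. On X they averaged 13.2% in nonassimilated flies, against 43.6% in control flies and 41.7% in P0. The D907 alleles thus stood on opposite sides of P0 on chromosome 3 and on X.

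**Figure D4:**
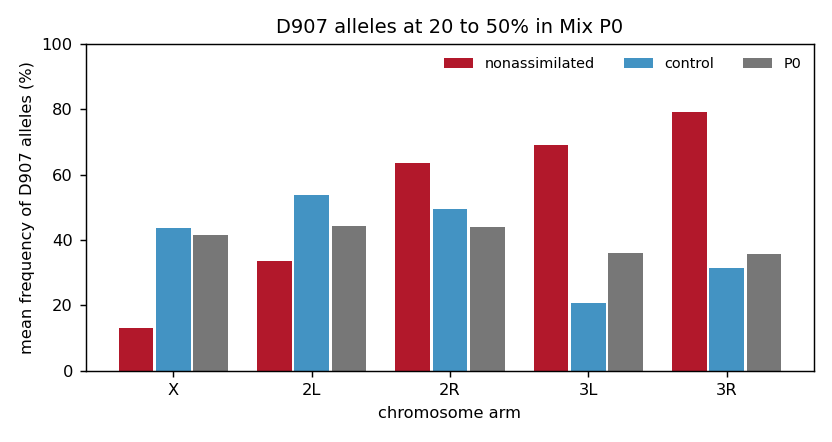
Bars give the mean frequency, in percent, of alleles at 98% or more in D907 and at 20% to 50% in Mix P0, by chromosome arm, for nonassimilated (left), control (middle) and P0 flies (right). Nonassimilated flies have the highest bar on 2R, 3L and 3R (79.1% on 3R) and the lowest on X (13.2%) and 2L (33.7%).

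The same alleles split the runs by the haplotype that was fixed. Stretches of at least 3 windows with 20 or more D907 alleles, at least 90% of them fixed for D907 per window, joined over 1 other window, covered 16.0 Mb with the range of 20% to 50%. These were 2R from 14.4 to 21.4 Mb, 3R from 14.8 to 18.9 Mb and from 24.8 to 27.9 Mb, and 3L from 11.6 to 12.3 Mb and from 12.5 to 13.6 Mb. Stretches in which at least 90% of the D907 alleles were lost, joined in the same way, covered 26.9 Mb. Their mean D907 frequency in nonassimilated flies was at most 4.54%, except on X from 17.1 to 17.4 Mb, where it was 13.3% and 86.2% of the alleles were lost. The longest was 2L from 10.2 to 21.0 Mb, where the D907 allele averaged 0.777% in nonassimilated flies, against 48.7% in control flies and 45.1% in P0. The long run of 2R was therefore made of unlike parts: D907 alleles averaged 100.0% in nonassimilated flies up to 21.4 Mb and 0.486% from 21.5 to 25.3 Mb. cv-2 lies before this switch and bs, px and Dll after it. In the fixed run of X from 4.4 to 8.2 Mb the alleles were lost, and they averaged 1.35% in nonassimilated flies from 4.3 to 8.2 Mb, against 58.2% in control flies and 39.7% in P0. With the range of 10% to 40% the fixed stretches covered 13.6 Mb and the lost ones, all on X, 3.90 Mb.

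Alleles that swept from low frequency, here from at most 10% in P0 to at least 90% in nonassimilated flies, were found at 6395 sites, and 5881 of them (92%) lay on X, which held 14.4% of the arm sites. With a P0 bound of 20%, X held 67.3% of 14525 such alleles. The other arms had 182 (3R), 137 (2R), 100 (2L) and 95 (3L). On 2R and 2L these sites were thinly covered, with medians of 10 and 15.5 reads in nonassimilated flies. With at least 50 reads in both pools 5222 remained on X, 93 on 3R, 20 on 2L, 19 on 2R and 14 on 3L. The sites were chosen by their frequencies in both pools, so their change is a description.

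On X the swept alleles formed 1 segment. From 14.1 to 23.3 Mb, the part of X towards the centromere and a length of 9.2 Mb delimited after seeing the counts, lay 5754 of the 5881, in 90 of its 92 windows. They averaged 96.3% in nonassimilated flies and 4.81% in P0, and 10.4% in control flies at the 3526 sites listed with control. They were 8.83% of the sites of the segment. In assimilated flies they averaged 7.10% at 4681 listed sites, and in nonassimilated flies of experiment 2 1.51% at 925 sites, against 0.832% in the P0 of that experiment. The rule for listing a site is not given. If sites without an alternative read in either pool were left out, these means and that of control flies are too high for all 5754. Of the 5754 alleles 2005 were fixed in nonassimilated flies. The segment as a whole was not fixed as the runs were: 63.6% of its segregating sites were fixed, and 39.9% of its listed sites had changed.

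**Figure D5:**
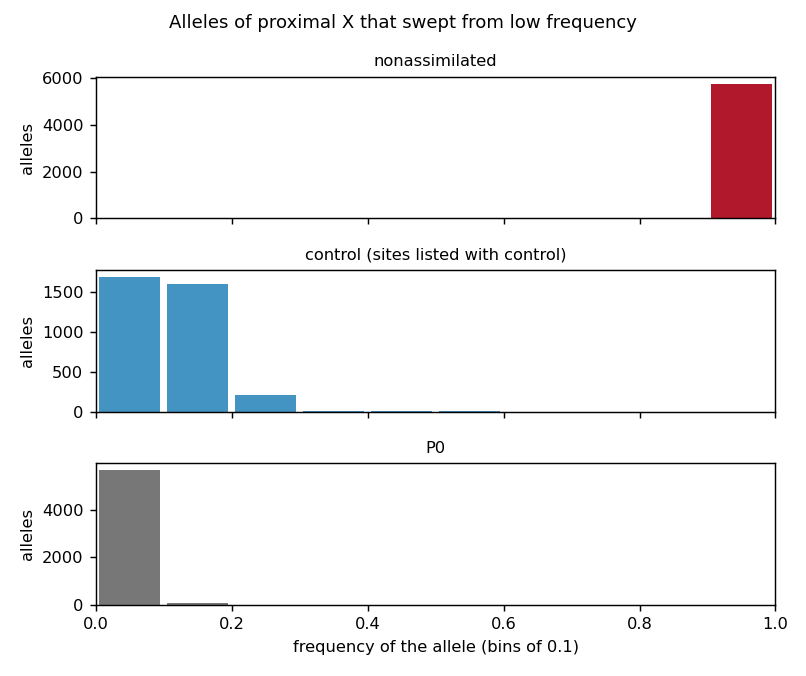
The 3 panels count the swept alleles of the X segment from 14.1 to 23.3 Mb by their frequency, in bins of 0.1, in nonassimilated (top), control (middle, sites listed with control) and P0 flies (bottom). The 5754 alleles lie at 0.9 or more in nonassimilated flies and at 0.1 or less in P0 (95 at exactly 0.1), which the choice of sites fixes, and of the control values 1690 lie below 0.1 and 1601 in the next bin.

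The windows with most of them, on X and each of 100 kb, began at 17.3 Mb (174 swept alleles of 806 sites), 20.4 Mb (168 of 812), 14.8 Mb (165 of 1188), 17.1 Mb (155 of 740) and 22.5 Mb (155 of 747). Their mean frequency in control flies was 7.42%, 3.36%, 15.5%, 6.92% and 13.4% in the same order. These means cover only the sites listed with control. By gene body Flo2, which encodes a flotillin, had 139 swept alleles of 1288 listed sites and CG43759 135 of 847. CG45002 had 132 of 1096, dpr8 130 of 1086 and shakB, a gap junction gene, 82 of 1171. They were followed by CG5004 (66 of 275), the potassium channel gene eag (64 of 600), Bx (62 of 540), f (60 of 496) and Mnr (56 of 689). Over the whole segment 8.83% of sites were swept, in 90 of 92 windows, and long genes with many sites rank high by count. Flo2 had 32 of its swept alleles in coding sequence and Bx 8, while shakB and eag had 0. Bx encodes Beadex, a LIM-only protein of wing development. The wing transcription factor gene sd, whose product pairs with vestigial, had 12 swept alleles of 66 sites, and sog, a BMP antagonist, 23 of 194. Over all arms 714 of the swept alleles (11.2%) were coding, a class that made up 12.8% of the listed sites.

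Swept alleles without a single read in P0 numbered 2148, of which 1935 lay on X. Their median P0 depth was 70.0 reads, and a count of 0 at this depth allows a frequency of up to 4.29% (3 counts). Absence from P0 was therefore not detectable as such at this depth. With at least 50 reads in both pools 1722 such alleles remained at 90% or more in nonassimilated flies, 98.2% of them on X.

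Genes were scored as fixed when at least 5 segregating sites lay in the gene body and at least 90% of these were fixed. Of 10899 protein-coding genes with enough sites 3425 (31.4%) were fixed, and 8760 (80.4%) held a changed site, so that most genes carried a called site whatever their function. Of the 13 candidate genes of the study, 7 of the 12 with enough sites were fixed and 12 of 12 held a changed site. The fixed ones were Cad96Ca (73 of 73 segregating sites), tx (66 of 66), CG31262 (62 of 62), Cyp9c1 (8 of 8), Pxd (76 of 77), CG8907 (20 of 21) and SK (299 of 323). CG4250 had 3 segregating sites, all fixed. The study chose the candidates among the lines selected for EV (Hsp83 from D907), so their share is not independent evidence. SK, CG5144 and Vajk1 were findings of its assimilated line. Knockdown of SK or Ect3 gave no wing phenotype there, and the study held both genes unlikely to take part in EV evolution. Genes inside 1 run share its haplotype and are not separate cases.

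The other candidates with enough sites stayed below the bound of 90% of sites fixed. kibra, a Hippo pathway gene on 3R, had 44 of 330 sites fixed (13.3%) in nonassimilated flies, and lies on the centromere side of the proximal run, against 5.36% of 317 sites in control flies. In nonassimilated flies of experiment 2 98.5% of 196 segregating sites of kibra were fixed. Ect3 had 40% of 45 sites fixed, Vajk1 50% of 18, CG5144 (named Argk2 in the annotation) 55.6% of 9, and Hsp83, the fly Hsp90 gene whose loss uncovers hidden variation, 85.7% of 7. Against control flies directly, 64 of 85 tested sites of Pxd, 45 of 75 of Cad96Ca, 179 of 387 of SK, 26 of 80 of tx and 42 of 79 of CG31262 were called, and 18 of 356 of kibra.

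The lists of vein pathway genes fell on both sides of the share of fixed genes over all genes (31.4%), and these counts were not tested. In the EGFR list 3 of 22 genes with enough sites (13.6%) were fixed (Egfr, bs and px), with a median of 40% of sites fixed per gene, against 50% over all genes. rhomboid (rho), which releases the EGFR ligand, had 45 of 53 sites fixed, while kek1 and Raf had 0 of 27 and 0 of 255. In the Notch list 2 of 10 were fixed (Ser and E(spl)mbeta-HLH), and in the Hedgehog list 2 of 7 (kn and fu). In the BMP list 6 of 16 (37.5%) were fixed (Dad, cv-2, cv, bi, salm and salr), and in the vein prepattern list 4 of 10 (ara, caup, ab and Dll). In the Hippo list 5 of 12 (41.7%) were fixed (hpo, yki, fj, sav and Mer). Of the heat shock list 1 of 14 genes was fixed (Hsf), and the small heat shock genes of 3L, Hsp22, Hsp23, Hsp26 and Hsp27, had 11 of 46, 2 of 6, 6 of 13 and 1 of 14 sites fixed.

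Coding sites were fixed more often than other sites. Of 121124 segregating coding sites 56.3% were fixed, against 51.3% of sites in UTRs, 47.2% in introns or noncoding RNAs and 45.6% between genes. Changed sites made up 28.0% of listed coding sites and 19.8% of intergenic sites. The part that the position of the runs has in this difference was not tested.

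Few sites were fixed in other stretches. Stretches of at least 5 windows with at most 15% of segregating sites fixed per window, joined over 1 other window, numbered 15 and covered 17.7 Mb, with 5 on 3L, 4 on 2R, 3 on 3R, 2 on 2L and 1 on X. The bound was chosen after seeing the data. Few fixed sites did not always go with kept variation: on 3L from 7.3 to 8.7 Mb mean 2pq was 0.197 in nonassimilated flies and 0.365 in P0, and on 3L from 9.6 to 11 Mb it was 0.204 in nonassimilated flies and 0.365 in P0. The longest lay on 3L from 17.1 to 19.9 Mb, where 7.68% of 24495 segregating sites were fixed, 8 of 29486 sites had changed and mean 2pq was 0.333 in nonassimilated flies, 0.316 in control flies and 0.348 in P0. On X from 1.6 to 4.0 Mb, which holds Raf, csw and Notch (N), mean 2pq was 0.324 in nonassimilated flies, 0.236 in control flies and 0.309 in P0. There 11.2% of segregating sites were fixed in nonassimilated flies, against 24.4% in control flies. The window with the highest 2pq lay on X from 0.7 to 0.8 Mb, at 0.393 in nonassimilated flies and 0.337 in P0, and the next ones on 3L from 17.5 Mb (0.384 in nonassimilated flies, 0.385 in P0), on 3R from 14.5 Mb (0.378 in nonassimilated flies, 0.382 in P0), and on 3L from 18.6 Mb (0.374 in nonassimilated flies, 0.379 in P0) and 18.4 Mb (0.373 in nonassimilated flies, 0.367 in P0). In all, 1225 of 1319 windows had a lower mean 2pq in nonassimilated flies than in P0.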

How the data were processed

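Genomic DNA of 100 adult females per population was sequenced by the authors as 1 pool. The authors aligned the reads to dm6 with BWA and called SNPs and InDels with GATK (versions are not given in the sources used here). The deposited tables hold, per site, reads of the reference and alternative allele in 2 pools, not normalized, with a Fisher p-value by the authors. A rank of that p-value and a q-value, a score in these files, were deposited too, and these 3 columns hold the authors' own comparison and were not used. From the 9 deposited tables, read counts of 5 were used. The filters on sites are not given in the sources used here.

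Allele frequency was the alternative reads divided by all reads of the site, and 16 sites without reads in a pool were kept in the test as unchanged. Sites were tested one by one (Fisher's exact test, two-sided) and p-values multiplied by the number of sites (Bonferroni). On 100000 simulated sites for nonassimilated against P0, 97.7% of sites fixed from a frequency of 0.25 and 48.5% of sites raised by 0.5 were called, and 0 unchanged sites. The simulation adjusted for its own 100000 sites and not for the 1203242 of the table, a more lenient cut. The called shares at the cut used here would therefore be lower. It drew reads only, without the sampling of chromosomes into the pool. Fixation, windows, runs and sweeps are descriptions, since linked sites are not independent. Intervals are exact 95% binomial (Clopper-Pearson) and cover counting error only. The 112 listed genes (EGFR, Notch, BMP, Hedgehog, prepattern, Hippo, heat shock and candidates) were matched to Ensembl BDGP6, which shares the dm6 coordinates. Named were these genes, the runs, and the windows and genes with most swept alleles or highest 2pq. Members and lists were chosen with earlier results of these data known. The tools were SciPy 1.17.1, Numba 0.67.0, NumPy 2.4.6, pandas 2.3.3 and Matplotlib 3.10.9 under Python 3.11.15.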

Additional observations from a re-analysis of the deposited data

Results flagged for a closer look

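In 2 of the 6 runs the allele that became fixed in nonassimilated flies of experiment 1 had a lower mean frequency in nonassimilated flies than in P0 of experiment 2. The direction in experiment 1 follows from the choice of the fixed allele. In the run on X from 4.4 to 8.2 Mb its frequency in experiment 2 averaged 40.7% in nonassimilated flies and 54.2% in P0, a mean change per site of -0.135 over 13705 sites, of which 27.9% were fixed for the same allele and 38.9% for the other allele in experiment 2. In the run on 2L from 10.2 to 11.9 Mb it averaged 42.7% in nonassimilated flies and 46.4% in P0, a change of -0.0374 over 8926 sites, of which 35.7% were fixed for the same allele and 49.0% for the other allele, so the mean is over sites that went both ways. Each experiment has 1 pool per population, and the difference between the experiments was not tested.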

How the results depend on the processing

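The count of changed sites was 838918 with a Benjamini-Hochberg adjusted p-value below 0.05 and 140637 with reads scaled to effective counts for 200 chromosomes, against 257473. The share of segregating sites fixed was 46.8% with no read of the other allele, 50.9% with a bound of 0.05, 49.5% and 45.6% with a P0 minor allele of at least 0.05 and 0.2, and 48.3% with at least 30 reads, against 48.2%. Swept alleles numbered 2901 and 14525 with a P0 bound of 0.05 and 0.2, and 2573 with a frequency of at least 0.98 in nonassimilated flies, against 6395, and X held 67.3% of those with a P0 bound of 0.2, against 92%. Fixed genes numbered 1533 with at least 20 segregating sites, against 3425, since fewer genes then had enough sites. The share of D907 alleles lost was 5.33% with a P0 range of 0.15 to 0.35 and 17.7% with 0.2 to 0.5, ranges added for this share after seeing the data, against 8.75%. The longest run measured between 10.8 and 10.9 Mb under the 4 alternatives tried, and their number of runs was 6 to 9. No paired analysis was possible because each population is 1 pool, and the numbers of the experiments give no second nonassimilated pool with the same P0. Depth limits the test: the smallest absolute change at a changed site was 0.0517, while the largest change at a site that was not called, with at least 30 reads in both pools, was 0.806.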

Other observations

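Outside the 5 arms, 414 of 22923 listed sites (1.81%) had changed. Chromosome 4 had 3521 listed sites, 53.7% of its 3014 segregating sites were fixed in nonassimilated flies and 4.71% of its sites had changed. The Y chromosome had 1941 listed sites although the pools were of females, with a median depth of 11 reads in nonassimilated flies and 21 reads in P0.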
